A study of Mus musculus with 10 samples.

Results

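The respiratory chain of the inner mitochondrial membrane is built from proteins of both the nuclear and the mitochondrial genome. Its genes were taken here as the protein-coding mouse genes whose symbols match the families Ndufa, Ndufb, Ndufc, Ndufs and Ndufv, Sdha to Sdhd, Uqcr, Cox4 to Cox8 and Atp5, together with Cyc1 and the 13 protein genes of mitochondrial DNA. Annotation biotypes removed 12 further matches that are not protein coding. This gave 99 genes among the 54446 gene identifiers counted, of which 86 are nuclear and 13 mitochondrial. The nuclear genes comprise 37 of complex I, 4 of complex II, 9 of complex III, 18 of complex IV and 18 of complex V by symbol. Mitochondrial DNA adds 7 genes of complex I, 1 of complex III, 3 of complex IV and 2 of complex V.

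The counts come from polyadenylated RNA of tumours of TH-MYCN mice, a neuroblastoma model in which a human MYCN transgene is driven by the promoter of tyrosine hydroxylase in the sympathetic lineage. All groups carry this transgene, and no ages are given in the labels. The groups were untreated tumours (n = 3), tumours treated for 24 h (n = 3, numbered 2 to 4) and tumours treated for 5 days (n = 4) with MLN8237 and AZD6738. MLN8237, or alisertib, blocks Aurora-A, a kinase of mitosis, and AZD6738, or ceralasertib, blocks ATR, a kinase that responds to replication stress. The sample titles name both compounds as a combination, whereas the design text joins them with "or".

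Complex I oxidises NADH, and complex II, which is also succinate dehydrogenase of the tricarboxylic acid cycle, oxidises succinate. Both pass electrons through ubiquinone to complex III, from where cytochrome c carries them to complex IV, the cytochrome c oxidase that reduces oxygen. Complexes I, III and IV pump protons, and complex V, the ATP synthase, uses the gradient to make ATP. Complex II is the only one of the 5 with no subunit encoded in mitochondrial DNA. Mitochondrial transcripts are made as long polycistronic precursors from each strand and are cut into separate RNAs, so their levels have common inputs, whereas each nuclear gene has its own promoter.

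Depth was 5576926 to 5696436 counts per library. Values are given as CPM, counts relative to a fixed library total, on library sizes scaled by TMM, a factor that offsets differences in composition. The library labelled 5 days, number 1 stood apart from the other 9. Its scaling factor was 0.812, against 1.001 to 1.039 elsewhere. Its 10 adrenergic neuroblast markers summed to 571 CPM, while they summed to 2052 to 2605 CPM in untreated tumours, 1747 to 2233 CPM at 24 h and 1560 to 2282 CPM in the other 5-day libraries. The 6 fibroblast markers summed to 17340 CPM in this library (201 to 2462 CPM elsewhere), the 8 macrophage markers to 5129 CPM (237 to 635 CPM) and the 6 adipocyte markers to 4843 CPM (14.2 to 716 CPM). The adipocyte marker Lipe was listed at 0 in all 10 libraries. In RNA of whole tumours, fewer cells of a type and less RNA per cell cannot be told apart. Because 5-day library 1 stands apart, fold changes at 5 days, and the counts and medians over them, are given with and without it. Markers of other tissues were high in 5-day library 2 as well. There the 6 adrenal cortex markers summed to 1603 CPM (7.64 to 94.5 CPM elsewhere). The 4 hepatocyte markers summed to 291 CPM (0.175 to 7.86 CPM elsewhere). Values without library 1 still include library 2. The labels do not say whether each library is a different animal; p-values therefore reflect spread among libraries, which may be technical.

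Of the 99 genes, 92 passed the filter on low counts and were tested, namely 79 nuclear and all 13 mitochondrial genes. The 7 others are nuclear. Ndufa13, Cox4i1, Cox6a2 and Cox8c were listed at 0 counts in all 10 libraries. Ndufa13 encodes a complex I subunit and Cox4i1 the common form of cytochrome c oxidase subunit 4, both of which respiring cells use, so a 0 here can be a failed count and no level was read from it. In the annotation, 30% of the exon bases of Ndufa13 are shared with Tssk6, 9.94% of those of Cox4i1 with Emc8 and 10.3% of those of Cox6a2 with Itgad. Cox8c shares none with another gene. Cox4i2, the lung isoform of subunit 4, had 0 to 13 counts per library, Cox7b2 had 0 to 2, and a second identifier of Atp5o had 0 to 8. For a gene with no count, 3 counts, or 0.516 to 0.655 CPM, are the upper limit taken in a library, and this covers counting error only. The symbols place Ndufa4 with complex I, although its protein is known as a subunit of complex IV, and Atp5s is not a structural subunit of the ATP synthase.

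Nuclear respiratory genes are textbook targets of NRF1, of the ETS factor GABPA and of YY1. Promoter windows of 300 bases (250 before and 50 after the start, RefSeq annotation of GRCm38.p6, 1 per gene) were available for 69 of the 86 nuclear genes. The NRF1 palindrome, spelled by the first run of capitals in the Cox6a1 stretch, was present on either strand in 5 of these 69 windows (7.25%), against 0.977% of the windows of 27025 genes. The letters CCGGAAG (ETS) were present in 15 windows (21.7%, against 9.12% of all) and AAGATGG (YY1) in 10 windows (14.5%, against 6.48% of all). No match of 1 motif overlapped a match of another in the windows of the respiratory genes. Only these exact letters were searched, and a match is a description of the sequence. For the respiratory genes the window nearest the gene's start in GENCODE was taken, and for all genes the first listed. Over the 250 bases before the start, the median number of CpG dinucleotides was 14 in the respiratory genes and 6 in all genes. The part of either difference in these shares was not tested. Cox6a1, the widely used isoform of cytochrome c oxidase subunit 6a, is shown as a window that holds both an NRF1 and an ETS match before the start. The stretch below is chr5:115348959-115349208 of GRCm38.p6, minus strand, read 5′ to 3′ and ending at the base before the start, with both matches in capitals.
Cox6a1: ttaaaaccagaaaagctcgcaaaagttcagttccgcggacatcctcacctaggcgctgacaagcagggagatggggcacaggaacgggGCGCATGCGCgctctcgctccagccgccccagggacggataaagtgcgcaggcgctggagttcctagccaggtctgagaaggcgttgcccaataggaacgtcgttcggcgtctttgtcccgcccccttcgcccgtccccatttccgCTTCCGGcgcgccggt

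Per kilobase of transcript, 11 mitochondrial genes held the top of the order of levels in untreated tumours, while mt-Nd4l and mt-Nd3 came after Atp5b at 644 and 631 CPM per kilobase. The highest mean was that of mt-Co1, the catalytic subunit of complex IV, at 4476 CPM per kilobase, followed by mt-Cytb, the cytochrome b of complex III, at 3700 CPM per kilobase. The highest nuclear genes were Atp5b and Atp5a1, the β and α subunits of the catalytic head of the ATP synthase, at 953 and 588 CPM per kilobase. The lowest tested level was that of Cox6b2, the testis isoform of subunit 6b, at 1.99 CPM per kilobase. Libraries were made from polyadenylated RNA, and most mitochondrial transcripts carry short tails. The order above is therefore that of counts per kilobase in these libraries, and not of the abundance of RNA of the genomes. Below, levels and their ratio are compared between libraries.

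The 13 mitochondrial genes varied widely between libraries of the same group and did so in parallel. Summed over the 13 genes, they held 31630, 19910 and 31700 CPM in untreated tumours, 21110, 42430 and 33810 CPM at 24 h, and 52750, 30310, 23730 and 19030 CPM at 5 days. The highest and lowest sums in CPM thus both came from 5-day libraries, and the 3 groups overlapped. The largest member, mt-Co1, had 7492, 5449 and 7807 CPM in untreated tumours, 5483, 10890 and 8642 CPM at 24 h, and 15210, 7774, 6248 and 4998 CPM at 5 days. The complex III gene mt-Cytb had 5028, 2904 and 4766 CPM in untreated tumours, 2984, 6222 and 4863 CPM at 24 h, and 6414, 4339, 3161 and 2637 CPM at 5 days. In both genes 5-day library 1 had the highest CPM of all and 5-day library 4 the lowest, as the plot of the 13 genes by library shows. The complex I gene mt-Nd6, the only member encoded on the other strand of mitochondrial DNA, had 817, 440 and 681 CPM in untreated tumours, 437, 1012 and 834 CPM at 24 h, and 1067, 692, 544 and 420 CPM at 5 days. It shares 2.7% of its bases with mt-Nd5, and the labels do not state how strand was handled in counting. For the ATP synthase, mt-Atp6 ranged from 1532 to 3872 CPM and mt-Atp8, which shares 21.1% of its bases with mt-Atp6, from 197 to 429 CPM.

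**Figure D1:**
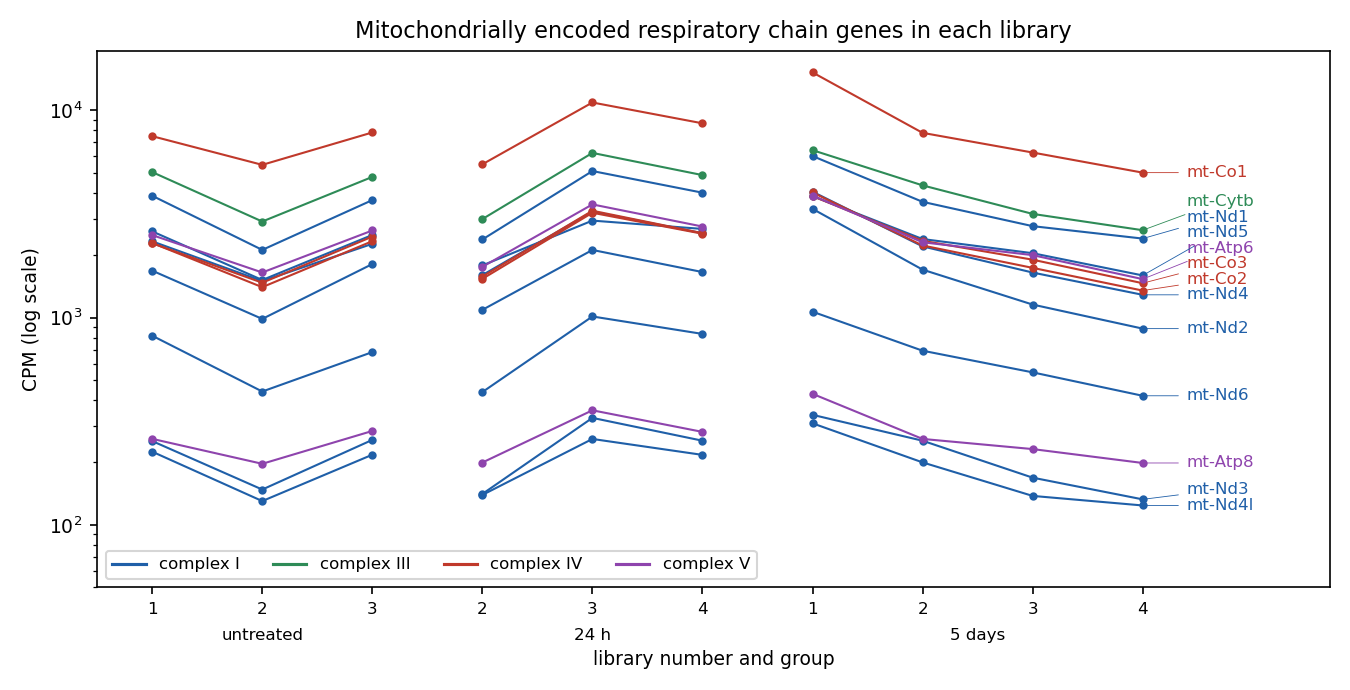
CPM on a log scale (y axis) of the 13 mitochondrially encoded genes in each of the 10 libraries (x axis, library number and group), coloured by complex; lines join the values of 1 gene within a group and imply no order. The lines run nearly parallel, and all 13 genes had their highest CPM in 5-day library 1.

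Over the 9 libraries other than 5-day library 1, the SD of log2 CPM (0.5 CPM added) within groups had a median of 0.45 over the 13 mitochondrial genes, 0.17 over the 79 tested nuclear genes and 0.20 over all 14956 tested genes. Nuclear complex V genes had a median SD of 0.14 and nuclear complex III genes 0.21. Across these 9 libraries, the Pearson correlation of 2 mitochondrial genes had a median of 0.97 (range 0.93 to 1.00, 78 pairs), that of 2 nuclear genes 0.52 (-0.94 to 0.99) and that of a nuclear with a mitochondrial gene 0.56 (-0.78 to 0.93). These correlations describe libraries that share depth and scaling, and were computed after the parallel pattern had been seen. In CPM, all 13 mitochondrial genes were at their highest in 5-day library 1, and so were 63 of the 79 tested nuclear genes. The scaling factor of 0.812 raises the CPM of that library. As a share of all counts, without this scaling, the 13 genes held 4.34% in 24 h library 3 and 4.24% in 5-day library 1. The nuclear genes held 1.25% in 5-day library 1 and 0.98% to 1.18% in the others. The sum of both mitochondrial rRNAs, which are not members, was 6997 CPM in that library and 827 to 2462 CPM in the others, and its part in the mitochondrial levels was not tested.

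Nuclear genes moved less between libraries than mitochondrial ones. The 86 nuclear genes summed to 11160, 9957 and 10840 CPM in untreated tumours, 9852, 10430 and 9526 CPM at 24 h, and 15560, 11460, 9809 and 10910 CPM at 5 days. Only 5-day library 1 lay outside 9526 to 11460 CPM. The log2 ratio of the mitochondrial to the nuclear sum was 1.503, 1.00 and 1.55 in untreated tumours, 1.10, 2.02 and 1.83 at 24 h, and 1.76, 1.40, 1.27 and 0.80 at 5 days. Its mean was 1.35 ± 0.30 in untreated tumours (SD, n = 3), 1.65 ± 0.49 at 24 h (n = 3) and 1.31 ± 0.40 at 5 days (n = 4), or 1.16 ± 0.32 at 5 days without library 1 (n = 3). The difference was 0.30 for 24 h minus untreated, -0.04 for 5 days minus untreated (-0.19 without library 1) and -0.34 for 5 days minus 24 h (-0.49 without library 1). The groups overlapped in each of these comparisons, and every difference with all libraries was smaller than 1 SD of the libraries at 24 h. The first difference was 0.11 without 24 h library 3, 0.58 without 24 h library 2 and 0.12 without untreated library 2. For 5 days minus untreated the sign turned without untreated library 1 (0.04), untreated library 3 (0.06) or 5-day library 4 (0.13), and the difference was -0.22 without untreated library 2 and -0.07 without 5-day library 2. For 5 days minus 24 h it was -0.62 without 24 h library 2, -0.15 without 24 h library 3 and -0.17 without 5-day library 4. Mitochondrial genes supplied 63.6% to 80.3% of all counts of the 99 genes.

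**Figure D2:**
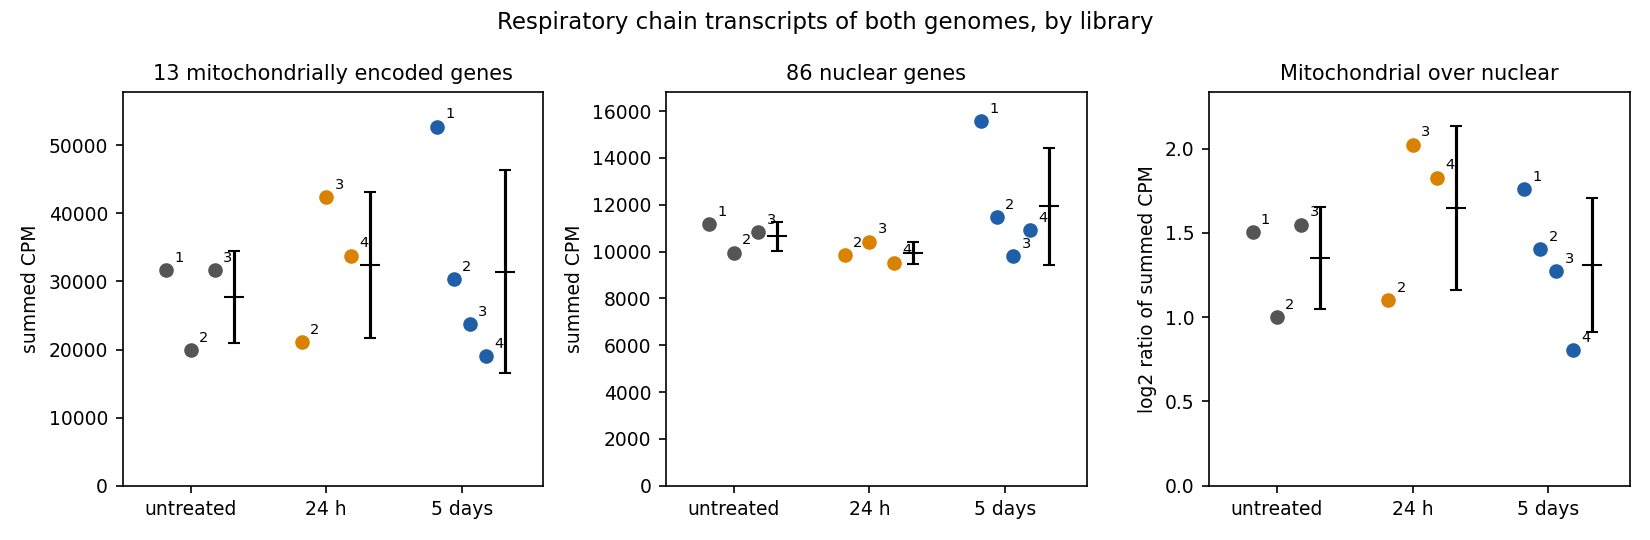
Summed CPM of the 13 mitochondrial genes (left), of the 86 nuclear genes (middle) and the log2 ratio of both sums (right) for each library (points, with library numbers), by group; bars are the mean ± SD over libraries (n = 3 untreated, 3 at 24 h, 4 at 5 days). The mitochondrial sums spread from 19030 to 52750 CPM with overlap of all groups, and only 5-day library 1 stands above the other nuclear sums, at 15560 CPM.

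No respiratory chain gene was called in any comparison at an adjusted p under 0.05 (edgeR quasi-likelihood test, Benjamini-Hochberg over 14956 genes). The share called over all genes was 0% in each of the 3 comparisons with all 10 libraries. DESeq2 called 0 genes at 24 h and 21 genes at 5 days relative to untreated tumours, and 3 genes between 5 days and 24 h, with 0 of the 92 members in each (0%, 0.14% and 0.0201% of all genes). Without 5-day library 1, edgeR called 2, 0 and 0 of 14699 genes (0.0136%, 0% and 0%) in the same order, again with 0 members. DESeq2 then called 105, 77 and 20 genes (0.714%, 0.524% and 0.136%) and 0 members. Both comparisons with untreated tumours share the 3 untreated libraries, and both comparisons with 24 h share the 24 h libraries.

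At 24 h, the mitochondrial genes lay above and most nuclear genes slightly below their untreated levels, without passing the test. All 13 mitochondrial genes had a positive log2 fold change, from 0.10 to 0.28, with a median of 0.24. Of 79 nuclear genes, 24 had a positive and 55 a negative one, with a median of -0.06, against 7259 and 7697 of all genes and a median of -0.01. The mitochondrial median rested on single libraries. It was -0.02 without 24 h library 3, 0.46 without 24 h library 2 and 0.03 without untreated library 2. Likewise, the nuclear median was -0.14 without 24 h library 3 and -0.12 without untreated library 2. It was -0.01 without 24 h library 2 and -0.0036 without untreated library 1. With a block by replicate number, the nuclear median turned positive, to 0.06, and the mitochondrial median was 0.53. At an unadjusted p under 0.05 there were 0 members in either direction, against 1.14% of all genes higher and 0.615% lower. Without 5-day library 1, from which the fit also takes its spread, 1 member (Cox6b2) was higher at an unadjusted p under 0.05 in edgeR. In the same fit 3 were lower (Ndufb2, Ndufs1 and Atp5b). The shares of all genes were 4.56% higher and 3.54% lower. Cox6b2 had 4 to 29 counts per library and passed the filter on low counts only through treated libraries. Its p is therefore not read as a result. The smallest adjusted p over members was 0.9997 in edgeR, and 0.4866 without 5-day library 1.

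Counting genes whose 24 h and untreated libraries did not overlap gave 6 nuclear genes lower at 24 h, 1 higher and 0 mitochondrial genes. Over all genes this held for 6.69% lower and 7.11% higher, and 6 of 79 is 7.59%, a share near that background. The lower genes included Ndufb2, Ndufb6, Sdha, Sdhb and Atp5b, and the higher one was Atp5d; of these, Ndufb6 lies outside the naming rule and was chosen after its values were seen. Ndufb6 shares 39% of its exon bases with Smim27. Sdha, the flavoprotein that binds succinate in complex II, had 256.5, 217.6 and 214 CPM at 24 h and 257.7, 273.4 and 276 CPM in untreated tumours. Its 24 h library 2 lay just below the lowest untreated library. Its partner Sdhb, the iron-sulphur subunit, had 145, 150 and 148 CPM at 24 h and 160, 160 and 171 CPM in untreated tumours, a log2 fold change of -0.15 ± 0.29 (SE, adjusted p = 0.9997, edgeR). Atp5b, a catalytic subunit of the ATP synthase, had 1709, 1497 and 1526 CPM at 24 h and 1884, 1754 and 1839 CPM in untreated tumours. Atp5d, the δ subunit of its rotor stalk, had 273, 307 and 288 CPM at 24 h and 268, 247 and 262 CPM in untreated tumours.

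At 5 days against untreated, values depended on 5-day library 1. With it, 64 of 79 nuclear genes had a positive log2 fold change with a median of 0.16, and 12 of 13 mitochondrial genes with a median of 0.18; all genes had a median of 0.01. Without it, 39 nuclear genes were positive and 40 negative with a median of -0.0036, and 0 of 13 mitochondrial genes were positive with a median of -0.21. Without 5-day libraries 1 and 2 together, the nuclear median was -0.12 and the mitochondrial median -0.39. The mitochondrial median was also -0.03 without untreated library 2. Without untreated library 2 the nuclear median was 0.07, and without 5-day library 3 it was 0.26. The mitochondrial median was 0.28 without untreated library 3 and 0.31 without 5-day library 4. Unadjusted p under 0.05 was reached by 0 members higher and 1 lower, Ndufb2, against 6.38% and 2.03% of all genes, and by the same numbers without library 1, against 4.65% and 3.86%. Groups did not overlap for 1 member higher (Ndufa12) and 1 lower (Ndufb2), against 4.01% and 4.89% of all genes. Both necessarily stayed apart without library 1, since leaving out a library cannot end such a separation. No other member joined them, while 6.61% of all genes were then higher and 7.6% lower in this sense.

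Between 5 days and 24 h the medians of the genomes had opposite signs with all libraries and without 5-day library 1. With all libraries, 66 of 79 nuclear genes were positive with a median of 0.21 (all genes 0.03), and 4 of 13 mitochondrial genes with a median of -0.06. Without 5-day library 1, 44 of 79 nuclear genes were positive with a median of 0.03, and 0 of 13 mitochondrial genes with a median of -0.40, from -0.53 to -0.28. Without 5-day libraries 1 and 2 together, both medians were negative, at -0.06 (nuclear) and -0.65 (mitochondrial). The mitochondrial median also turned positive without 24 h library 3 (0.17), without 5-day library 3 (0.05) and without 5-day library 4 (0.11), and was -0.31 without 24 h library 2 and -0.03 without 24 h library 4 or 5-day library 2. At an unadjusted p under 0.05, 5 members were higher and 0 lower, against 3.96% and 2.34% of all genes. The 5 were Ndufs1, Uqcrc2, Cox7a1, Cox8b and Atp5b. Without library 1 there were 6 higher and 0 lower, against 3.67% and 4.09% of all genes, and those higher included Ndufs1, Sdha, Uqcrc2, Atp5a1 and Atp5b. In 7 nuclear genes (8.86% of 79) every 5-day library lay above every 24 h library, against 3.32% of all genes, and in 0 members below it, against 4.35%. The 7 genes were Ndufa9, Ndufs1, Ndufv1, Uqcrc2, Uqcrfs1, Atp5b and Atp5c1. Leaving out a library cannot end such a separation, so the 7 necessarily remained without 5-day library 1. No other member joined them, while the share of all genes was then 5.25%. Atp5d then lay lower at 5 days (6.68% of all genes were lower in this sense). Ndufa9, Uqcrfs1, Ndufa12 and Atp5a1, and Sdhc among the levels below, lie outside the naming rule and were chosen after their values were seen.

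**Figure D3:**
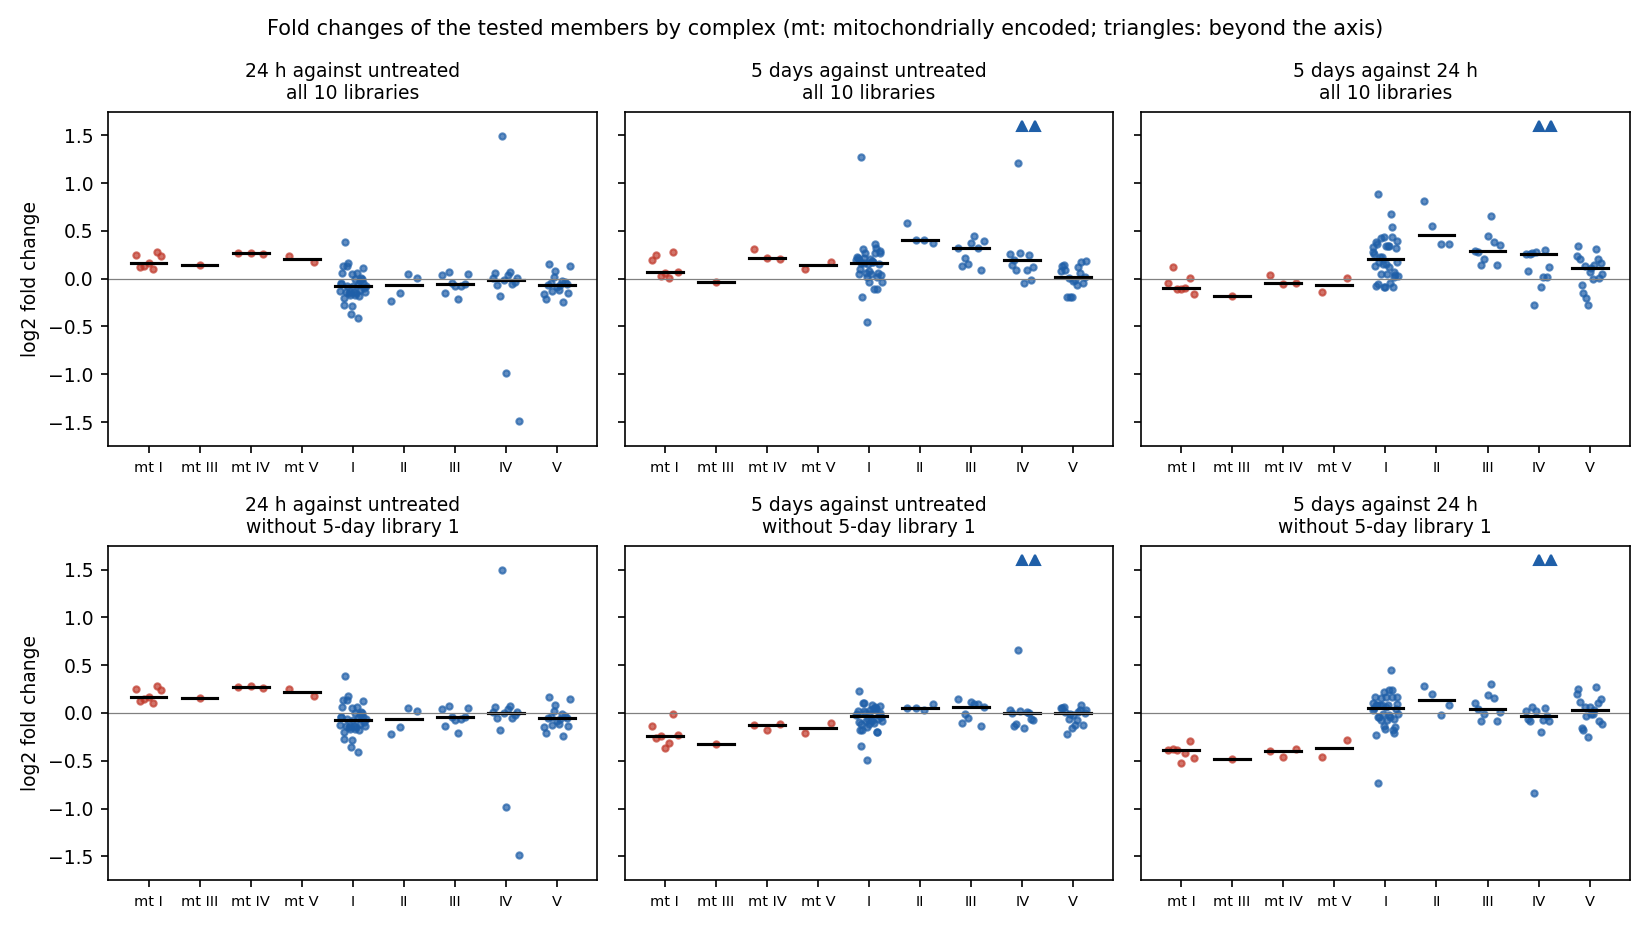
Log2 fold changes (y axis) of the 92 tested genes by complex (x axis, mt for mitochondrially encoded) in the 3 comparisons, with all 10 libraries (top) and without 5-day library 1 (bottom); points are genes, black lines medians, and triangles Cox7a1 and Cox8b beyond the axis. Without library 1 the 13 mitochondrial genes lie below 0 in both comparisons with 5 days, with medians of -0.21 against untreated and -0.40 against 24 h, while the nuclear medians are -0.0036 and 0.03.

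Among the complexes, the nuclear genes of complex I, the NADH dehydrogenase, had median log2 fold changes of -0.08 at 24 h, 0.16 at 5 days (-0.03 without library 1) and 0.20 for 5 days against 24 h (0.05 without library 1). Ndufs1, the largest subunit of the peripheral arm that carries iron-sulphur clusters, had 70.6, 84.0 and 73.4 CPM in untreated tumours, 71.8, 52.6 and 46.5 CPM at 24 h, and 131, 78.6, 76.2 and 79.3 CPM at 5 days. All 5-day libraries lay above all 24 h libraries, and 5-day libraries 2 to 4 lay within the untreated range. Ndufs1 shares 6.16% of its exon bases with other genes. The log2 fold change of 5 days against 24 h was 0.68 ± 0.23 (SE, unadjusted p = 0.016, adjusted p = 0.581, edgeR), and 0.45 ± 0.14 without library 1 (adjusted p = 0.6021). Ndufb2, an accessory subunit of the membrane arm, had 26.1, 21.5 and 25.3 CPM in untreated tumours, 17.1, 19.0 and 20.4 CPM at 24 h, and 19.2, 19.99, 14.3 and 17.4 CPM at 5 days. Every treated library lay below every untreated one, and 7.94% of its exon bases are shared with other genes. Against untreated, its log2 fold change was -0.45 ± 0.17 at 5 days (unadjusted p = 0.0247, adjusted p = 0.5382, edgeR), -0.49 ± 0.16 at 5 days without library 1 (adjusted p = 0.4501) and -0.37 ± 0.18 at 24 h (adjusted p = 0.9997). Ndufv1, which binds NADH, had 171, 170 and 193 CPM in untreated tumours, 165, 172 and 162 CPM at 24 h, and 313, 205, 173 and 184 CPM at 5 days. Its 5-day library 3 differed from the highest 24 h library by less than 1 CPM.

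Complex II had 4 positive log2 fold changes of 4 at 5 days against untreated, with a median of 0.40, and again 4 with a median of 0.06 without library 1. Sdha had 776, 330, 243 and 266 CPM at 5 days and 258, 273 and 276 CPM in untreated tumours. Library 1 was far above the next highest value, and 5-day libraries 3 and 4 lay within or below the untreated range. The log2 fold change was 0.58 ± 0.37 (SE, adjusted p = 0.5549, edgeR), and 0.06 ± 0.12 without library 1. Without 5-day libraries 1 and 2 together, that of Sdha was -0.09 and that of Sdhd -0.05. Sdhb had 354, 191, 148 and 171 CPM at 5 days, Sdhc, a membrane anchor, had 184, 98.4, 71.8 and 78.7 CPM, and Sdhd, the other anchor, 242, 156, 117 and 123 CPM. In each of the 4 genes the order of the 5-day libraries was 1, 2, 4 and 3.

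Complex III had 9 positive log2 fold changes of 9 at 5 days against untreated, with a median of 0.32, and 5 of 9 with a median of 0.06 without library 1. Uqcrc2, a core subunit, had 163, 151 and 172 CPM in untreated tumours, 152, 127 and 141 CPM at 24 h, and 363, 195, 159 and 167 CPM at 5 days. It shares 19.7% of its exon bases with Pdzd9. The 5-day and 24 h libraries did not overlap, with a log2 fold change of 0.66 ± 0.28 (SE, unadjusted p = 0.0402, adjusted p = 0.581, edgeR), and 0.31 ± 0.11 without library 1 (adjusted p = 0.6021). Uqcrfs1, the Rieske iron-sulphur protein, had 195, 177 and 181 CPM in untreated tumours, 178, 185 and 162 CPM at 24 h, and 331, 209, 187 and 191 CPM at 5 days. Cyc1, cytochrome c1, had 208, 211 and 222 CPM in untreated tumours, 231, 221 and 205 CPM at 24 h, and 360, 238, 213 and 259 CPM at 5 days. Cyc1 overlapped between all groups.

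Nuclear complex V genes had the smallest median of the complexes at 5 days against untreated with all libraries, with median log2 fold changes of -0.06 at 24 h, 0.02 at 5 days (0.00 without library 1) and 0.11 for 5 days against 24 h (0.03 without library 1). Atp5b had 2329, 1896, 1730 and 2040 CPM at 5 days, above the 1709, 1497 and 1526 CPM at 24 h. Its log2 fold change was 0.34 ± 0.15 (SE, unadjusted p = 0.0476, adjusted p = 0.581, edgeR), and 0.25 ± 0.09 without library 1 (adjusted p = 0.6021). The untreated values of 1754 to 1884 CPM lay inside the 5-day range. Atp5c1, the γ subunit of the central stalk, had 252, 209 and 215 CPM in untreated tumours, 215, 217 and 215 CPM at 24 h, and 293, 238, 226 and 240 CPM at 5 days.

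Library 1 of the 5-day group also differed between complexes. Its level divided by the median of the other 9 libraries had a median of 2.25 over the 4 complex II genes, 1.79 over the 9 nuclear complex III genes, 1.73 over 13 nuclear complex IV genes, 1.44 over 36 nuclear complex I genes and 1.15 over 17 nuclear complex V genes, against 0.967 over 14955 tested genes with a median above 0. The mitochondrial genes stood at 1.66 in complexes I and V, 1.48 in complex III and 1.80 in complex IV. The ratio was 3.01 for Sdha and 0.515 for Atp5g1, 1 of 3 genes that encode the same mature c subunit of the ATP synthase rotor. These ratios describe 1 library and carry no test; its marker sums are given above, and their part in the ratios was not tested.

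**Figure D4:**
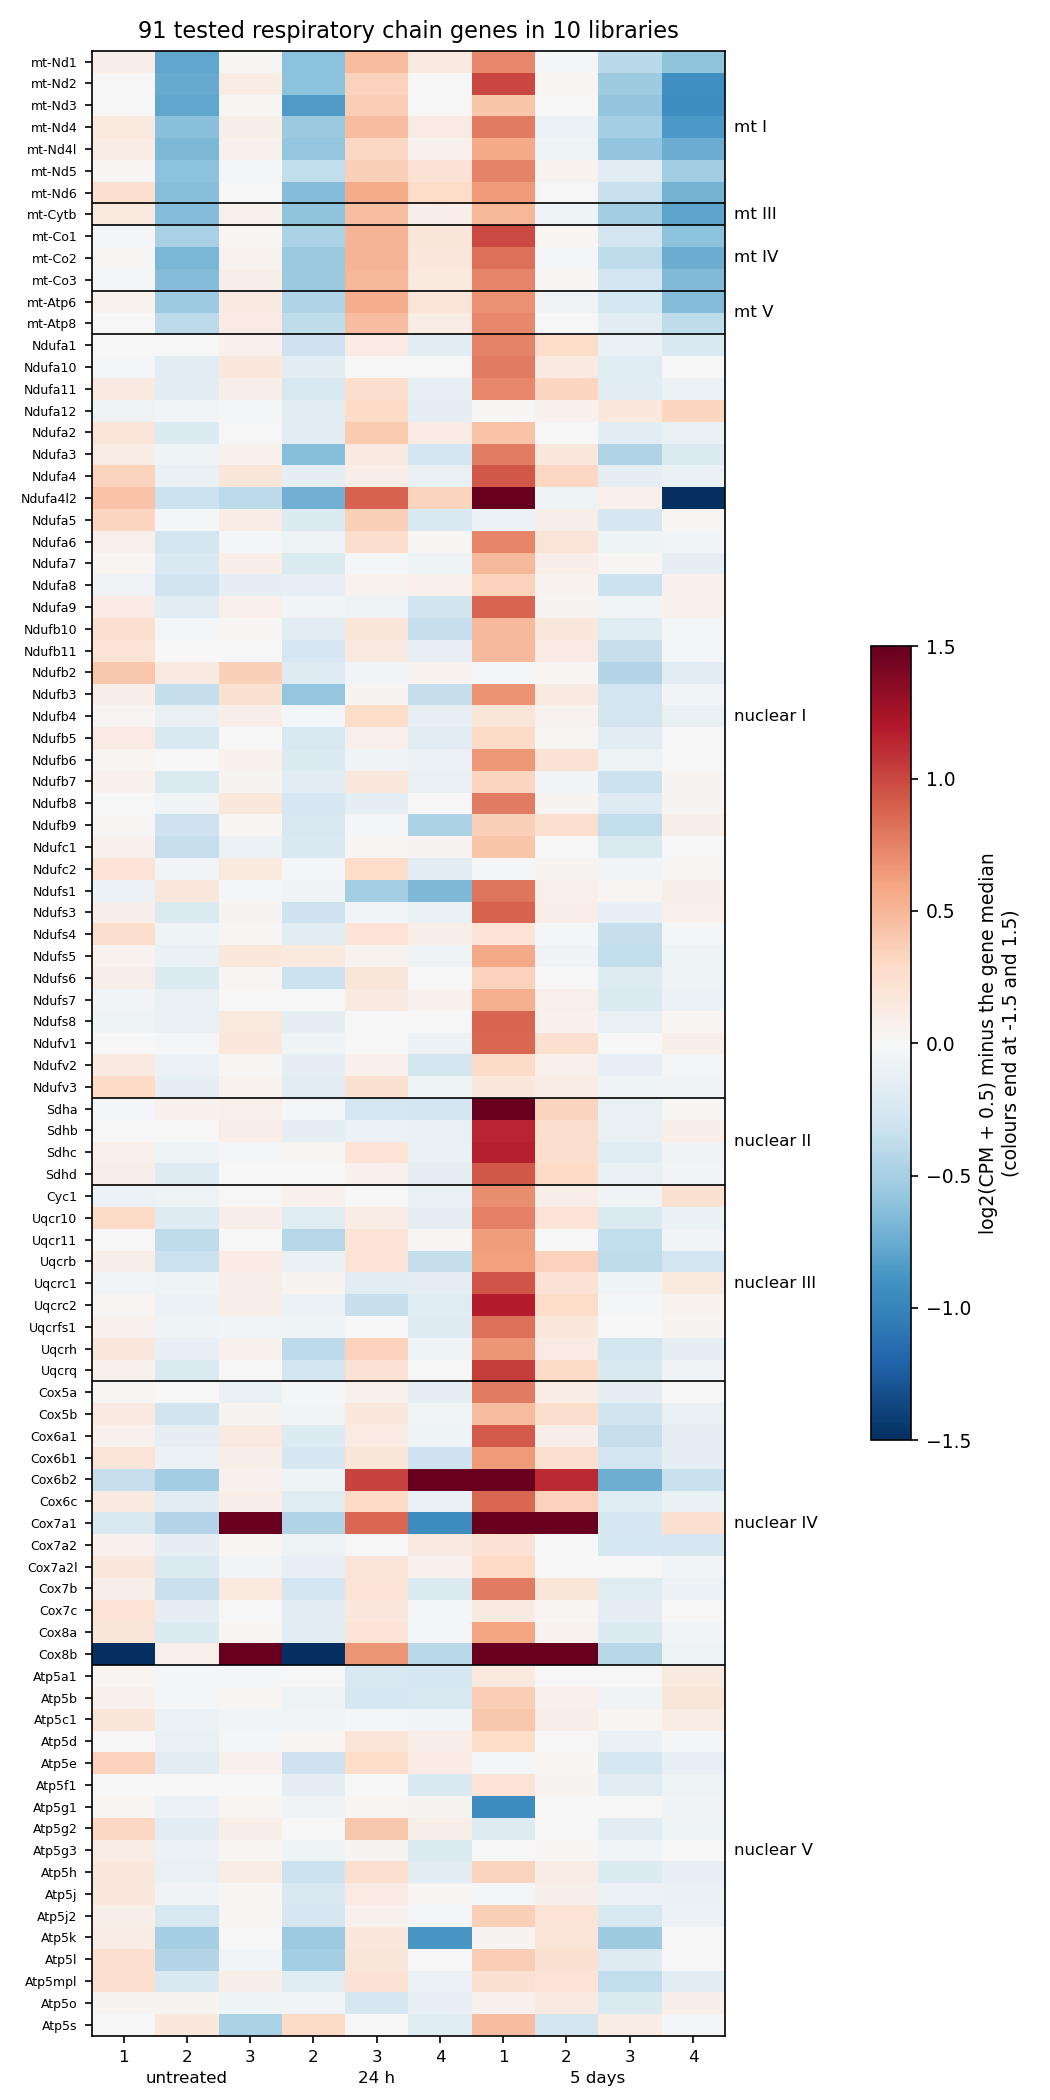
Level of 91 of the 92 tested genes (rows, grouped by genome and complex) in the 10 libraries (columns), as log2(CPM + 0.5) minus the gene's median over libraries, with colours that end at -1.5 and 1.5. Mitochondrial genes are high or low together in every library, and 5-day library 1 is high in most rows outside nuclear complex V.

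Nuclear complex IV genes had median log2 fold changes of -0.01 at 24 h, 0.20 at 5 days against untreated (0.0021 without library 1) and 0.26 for 5 days against 24 h (-0.03 without library 1). The 3 mitochondrial genes of the same complex had medians of 0.27, 0.21 (-0.12 without library 1) and -0.05 (-0.40 without library 1) in these comparisons. The largest log2 fold changes among the members with all libraries, in both comparisons of 5 days, belonged to a pair of tissue isoforms of cytochrome c oxidase. Cox7a1 and Cox8b are the forms of subunits 7a and 8 used in heart, skeletal muscle and brown fat, and Cox7a2 and Cox8a are the forms used in most tissues. Cox7a1 had 0.875, 0.698 and 5.40 CPM in untreated tumours, 0.691, 2.45 and 0.349 CPM at 24 h, and 62.6, 24.8, 0.860 and 1.42 CPM at 5 days. Cox8b had 0.525, 2.62 and 14.1 CPM in untreated tumours, 0.173, 4.19 and 1.74 CPM at 24 h, and 137.7, 53.9, 1.72 and 2.31 CPM at 5 days. Both were high in 5-day libraries 1 and 2 alone, next highest in untreated library 3, and overlapped between the groups. The log2 fold changes of 5 days against 24 h were 4.24 ± 1.61 for Cox7a1 (SE, unadjusted p = 0.0271) and 4.57 ± 1.81 for Cox8b (unadjusted p = 0.0322), each with an adjusted p of 0.581 in edgeR. Without library 1 they were 2.94 ± 1.501 and 3.24 ± 1.79, with adjusted p of 0.6685 and 0.6948 (edgeR), and without 5-day libraries 1 and 2 they were -0.03 and -0.02. Both genes passed the filter on low counts through few libraries.

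Of the counts of each pair, not corrected for length, Cox7a1 supplied 36.4% of Cox7a1 plus Cox7a2 in 5-day library 1, 20.9% in 5-day library 2 and 0.336% to 5.32% in the other 8 libraries. Cox8b supplied 30.3%, 19.8% and 0.0921% to 6.17% of Cox8b plus Cox8a in the same libraries. Cox7a2 ranged from 77.9 to 109.3 CPM and Cox8a from 182 to 317 CPM over all 10 libraries. The 4 brown adipocyte markers and the 8 skeletal muscle markers differed between these libraries as well. Ucp1, the uncoupling protein of brown fat, had 496 CPM in 5-day library 1, 243 CPM in 5-day library 2 and 0.863 to 30.0 CPM in the others. The sum of the brown adipocyte markers was 61.5 to 80.8 CPM in untreated tumours, 52.0 to 90.6 CPM at 24 h, 748 and 354 CPM in 5-day libraries 1 and 2, and 49.1 to 73.8 CPM in the other 5-day libraries. The sum of the skeletal muscle markers was 5.41 to 6.27 CPM in untreated tumours, 7.42 to 9.08 CPM at 24 h, and 5.67, 554, 10.2 and 195 CPM in the 5-day libraries, with Acta1 listed at 0 in all libraries. The 6 adrenal cortex markers summed to 1603 CPM and the 4 hepatocyte markers to 291 CPM in 5-day library 2. The part of these cells in the isoform levels was not tested.

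**Figure D5:**
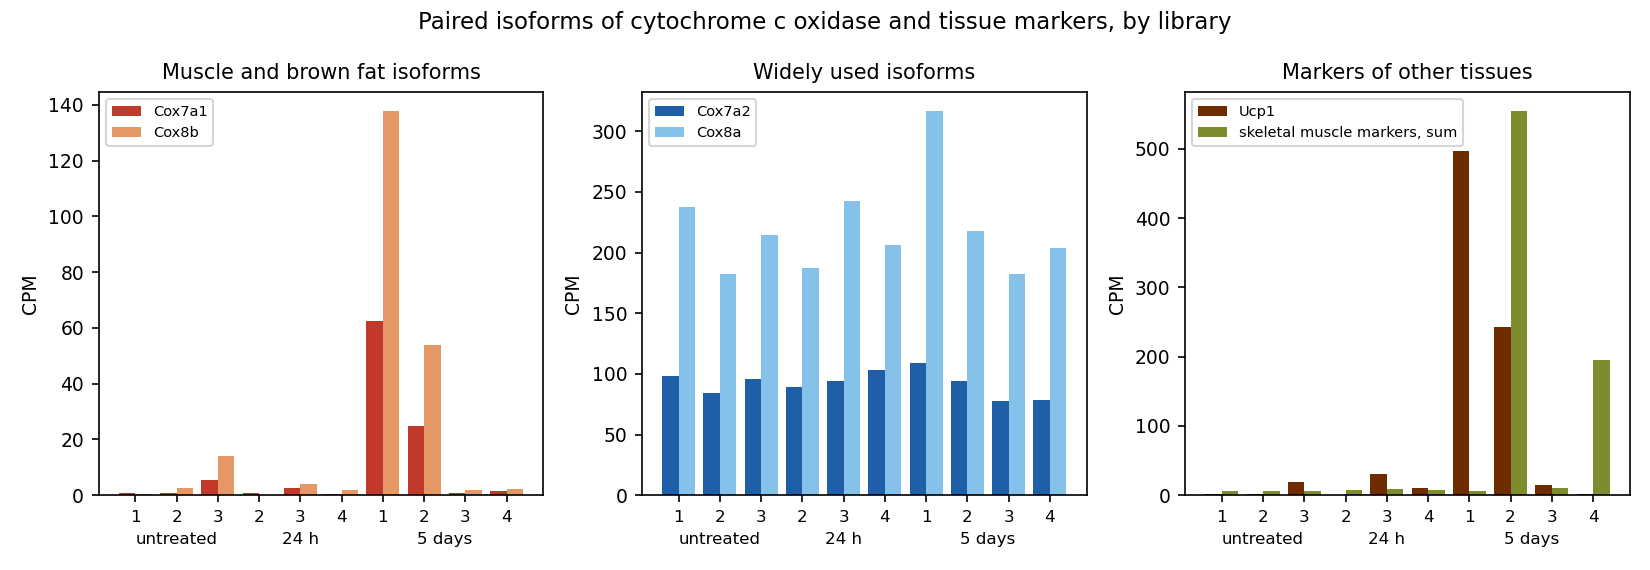
CPM in each library (x axis, library number and group) of the muscle and brown fat isoforms Cox7a1 and Cox8b (left), of the widely used isoforms Cox7a2 and Cox8a (middle), and of Ucp1 and the summed skeletal muscle markers (right). Cox7a1, Cox8b and Ucp1 are high in 5-day libraries 1 and 2, at 62.6 and 24.8, 137.7 and 53.9, and 496 and 243 CPM, while muscle markers are high in 5-day libraries 2 and 4.

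The promoters of these pairs are printed because both restricted isoforms were high in the same 5-day libraries, with values that spread far more than those of the widely used ones. Each stretch is the 250 bases before the start in the gene's own 5′ to 3′ direction, from RefSeq on GRCm38.p6, with CpG dinucleotides in capitals, a mark chosen after the sequences were seen. They lie at chr7:30183921-30184170 on the plus strand for Cox7a1, chr7:140900447-140900696 on the minus strand for Cox8b, chr9:79759854-79760103 on the minus strand for Cox7a2 and chr19:7217617-7217866 on the minus strand for Cox8a.
Cox7a1: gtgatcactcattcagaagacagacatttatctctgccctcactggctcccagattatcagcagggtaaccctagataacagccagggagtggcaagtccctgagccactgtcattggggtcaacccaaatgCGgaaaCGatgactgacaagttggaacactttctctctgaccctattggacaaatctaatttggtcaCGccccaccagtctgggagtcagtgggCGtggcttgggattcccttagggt
Cox8b: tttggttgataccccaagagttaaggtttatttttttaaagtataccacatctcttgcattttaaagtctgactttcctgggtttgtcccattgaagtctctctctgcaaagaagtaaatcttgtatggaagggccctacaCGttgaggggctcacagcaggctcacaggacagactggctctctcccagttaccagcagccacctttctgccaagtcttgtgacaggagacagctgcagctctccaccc
Cox7a2: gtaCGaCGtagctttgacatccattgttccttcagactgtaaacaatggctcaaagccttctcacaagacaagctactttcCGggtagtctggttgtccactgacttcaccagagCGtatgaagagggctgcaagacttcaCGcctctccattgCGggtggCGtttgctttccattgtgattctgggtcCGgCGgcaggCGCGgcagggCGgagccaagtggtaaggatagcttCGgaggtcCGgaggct
Cox8a: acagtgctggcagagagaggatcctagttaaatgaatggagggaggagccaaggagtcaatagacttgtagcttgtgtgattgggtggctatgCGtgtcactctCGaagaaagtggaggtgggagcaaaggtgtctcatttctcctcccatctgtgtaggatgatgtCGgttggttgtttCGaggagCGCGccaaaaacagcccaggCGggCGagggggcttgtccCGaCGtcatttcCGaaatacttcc

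The restricted isoforms had 4 (Cox7a1) and 1 (Cox8b) CpG in these stretches and the widely used ones 14 (Cox7a2) and 11 (Cox8a). Counted over the same 250 bases, the median was 14 over the 69 nuclear genes with a window and 6 over all 27025 genes. The 3 motifs searched were present in the 300-base window of Cox8a alone among these 4 genes, as an ETS match.

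Other isoform pairs differed less. Cox6a1, whose promoter is printed above, had 201, 174 and 212 CPM in untreated tumours, 167, 210 and 185 CPM at 24 h, and 364, 205, 152 and 175 CPM at 5 days, with overlap of all groups. Cox6b2, the testis form of subunit 6b, had 1.05, 0.873 and 1.57 CPM in untreated tumours, 1.38, 3.49 and 5.05 CPM at 24 h, and 5.46, 3.79, 0.688 and 1.07 CPM at 5 days. Its log2 fold change at 24 h was 1.49 ± 0.79 (SE, adjusted p = 0.9997, edgeR), and it supplied at most 4.46% of the counts of Cox6b2 plus Cox6b1 in any library. As given above, Cox6b2 passed the filter on low counts only through treated libraries. Ndufa4l2, a hypoxia-induced relative of Ndufa4, had 5.60, 3.14 and 2.96 CPM in untreated tumours, 2.24, 7.86 and 5.23 CPM at 24 h, and 29.0, 3.79, 4.30 and 1.07 CPM at 5 days. Apart from 5-day library 1 its values overlapped between the groups. Of the c subunit genes, Atp5g1 had 69.3, 63.6 and 69.0 CPM in untreated tumours, 65.1, 69.2 and 69.5 CPM at 24 h, and 34.9, 67.6, 67.8 and 65.4 CPM at 5 days. Atp5g3 had 243 to 303 CPM in all 10 libraries and Atp5g2 45.0 to 67.9 CPM. Reads of the 3 c subunit genes could be split by the counting where their copies are near identical, so these levels are uncertain.

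Genes that build or feed the chain were described from 6 lists. No gene of any list was called (edgeR, adjusted p under 0.05). Of 40 tested assembly factors, 11 were positive at 24 h (median log2 fold change -0.05) and 16 at 5 days against untreated (median -0.04; 11 and -0.08 without library 1). Coa5, an assembly factor of complex IV, had 260, 71.0, 55.4 and 53.7 CPM at 5 days and 57.6, 50.6 and 54.7 CPM in untreated tumours. Only library 1 and, less so, library 2 lay above the untreated range. Ndufaf4 and Timmdc1, with smaller p than Coa5, lay lower at 5 days. Ndufaf4 had 40.2 to 64.34 CPM against 64.43 to 81.2 CPM, and Timmdc1 35.8 to 38.0 CPM against 41.7 to 45.4 CPM. Groups did not overlap for 2 assembly factors lower and 0 higher, against 4.89% and 4.01% of all genes. Without library 1 these were 8 and 1, against 7.6% and 6.61%. Of 19 genes of mitochondrial DNA maintenance and transcription, 7 were positive at 24 h (median -0.06) and 4 at 5 days against untreated (median -0.11; 9 and -0.0006 without library 1). Tfam, which packages mitochondrial DNA and activates its transcription, had 104, 102 and 105 CPM in untreated tumours, 91.0, 95.7 and 84.2 CPM at 24 h, and 60.4, 90.3, 84.1 and 89.2 CPM at 5 days. Every treated library lay below the untreated ones, with a log2 fold change at 5 days of -0.35 ± 0.14 (SE, unadjusted p = 0.0357, adjusted p = 0.5382, edgeR), and -0.24 ± 0.08 without library 1 (adjusted p = 0.4855). At 24 h, 3 of the 19 genes were lower without overlap and 0 higher, against 6.69% and 7.11% of all genes. At 5 days these were 1 and 0, against 4.89% and 4.01%. Without library 1 they were 2 and 1, against 7.6% and 6.61%.

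Of 71 tested genes of mitochondrial ribosomal proteins, which translate the 13 mitochondrial mRNAs, 33 were positive at 24 h (median -0.01) and 17 at 5 days against untreated (median -0.08; 24 and -0.02 without library 1). Mrpl32, of the large subunit, had 43.8, 40.9 and 38.3 CPM in untreated tumours, 30.7, 35.3 and 33.6 CPM at 24 h, and 28.2, 35.2, 27.0 and 27.9 CPM at 5 days. All treated libraries lay below the untreated range, with a log2 fold change at 5 days of -0.47 ± 0.13 (SE, unadjusted p = 0.00614, adjusted p = 0.5382, edgeR), and -0.45 ± 0.13 without library 1 (adjusted p = 0.3629). At 24 h, 5 of the 71 genes were lower without overlap and 3 higher, against 6.69% and 7.11% of all genes. At 5 days these were 4 and 0, against 4.89% and 4.01%. Without library 1 they were 5 and 0, against 7.6% and 6.61%. Of 12 tested genes of the tricarboxylic acid cycle, which supplies NADH and succinate, 1 was positive at 24 h (median -0.09) and 12 at 5 days against untreated (median 0.45, and 11 with a median of 0.12 without library 1). Ogdh, a subunit of the oxoglutarate dehydrogenase complex, had 207, 201 and 218 CPM in untreated tumours, 195, 173 and 173 CPM at 24 h, and 766, 318, 196 and 192 CPM at 5 days. Here too 5-day libraries 1 and 2 were high, while 5-day libraries 3 and 4 lay below the untreated range. Of 9 mobile carriers and mass markers, 1 was positive at 24 h (median -0.05) and 4 at 5 days against untreated (median -0.10; 3 and -0.05 without library 1). Of 6 tested nuclear regulators, 1 was positive at 24 h (median -0.04) and 3 at 5 days against untreated (median 0.04; 3 and 0.02 without library 1). Esrra, a nuclear receptor of respiratory genes, had 99.7, 62.6, 50.4 and 59.7 CPM at 5 days and 51.5, 38.2 and 50.4 CPM in untreated tumours. For 5 days against 24 h, all 12 tricarboxylic acid cycle genes were positive (median 0.57; 12 and 0.18 without library 1). Medians of the other lists then ran from -0.06 to 0.10 (-0.03 to 0.05 without library 1). Ogdh was named from that comparison, at 1.03 ± 0.45 (SE, adjusted p = 0.581, edgeR), and 0.38 ± 0.18 without library 1.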

How the data were processed

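RNA sequencing of polyadenylated RNA was deposited by the authors as whole-number counts per Ensembl gene, 1 file per library. The submitters' processing notes name mm10 as build and TopHat2 2.1.1, edgeR and HISAT2 as software. Which counter, annotation and strand setting made the counts is not stated there or in the labels. All 10 files were matched to labelled samples, with 0 unmatched columns. Symbols, biotypes and lengths came from GENCODE M21, which held 54409 of 54446 identifiers. A gene's length is that of its APPRIS principal transcript in GENCODE.

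In edgeR 4.0.16 (R 4.3.3), filterByExpr (minimum count 10, total 15) left 14956 genes. Counts were scaled by TMM and fitted with 1 mean per group over all 10 libraries, with robust quasi-likelihood dispersion. A gene was called at a Benjamini-Hochberg adjusted p under 0.05, with adjustment over every gene tested. The SE is the log2 fold change divided by the root of its F statistic. The biological coefficient of variation was 40.8%, and 18.9% without 5-day library 1. The scripts were tested on simulated data. DESeq2 1.42.0 was an alternative. Figures used Python 3.11.15 and matplotlib 3.10.9.

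The members, lists and naming rule were chosen with earlier results of these data known, so lists are described by counts and medians. Named were the 13 mitochondrial genes, isoform pairs and the 2 members per complex and genome with the smallest p in each comparison. Up to 3 genes per list were named, also by the smallest p in each comparison, so they are extremes of their list. Any other gene was picked with its values in view and is marked so. Promoter windows came from RefSeq. Whether replicate numbers pair the samples was not settled. Correlations of same-numbered libraries ran from -0.395 to 0.247, and those of other pairs from -0.549 to 0.487. Between untreated and 24 h, same-numbered libraries had 0.211 and 0.247, and the other pairs -0.291 to 0.0493. At 5 days, deviations were taken from a group mean that includes library 1, so these correlations cannot decide the question. Counts and medians cover every tested member; the values of 1 member are not reported here.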

Additional observations from a re-analysis of the deposited data

Results flagged for a closer look

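In the 5-day group of 4 libraries, Dixon's test at the 95% level marked 4 values, all of library 1, among 65 respiratory chain measures of that group; chance marks about 1 in 20. Sdha, the succinate-binding subunit of complex II, had 775.7 CPM in library 1 and 242.6 to 330.2 CPM in the other 5-day libraries. Ndufs1, of complex I, had 131.1 CPM, above 76.2 to 79.3 CPM in the others. Ndufa4l2, the hypoxia-induced relative of Ndufa4, had 29.02 CPM, above 1.07 to 4.30 CPM in the others. Atp5g1, a gene of the c ring of the ATP synthase, was the only one of the 4 that lay low, with 34.91 CPM below 65.4 to 67.8 CPM in the others. The marker sums of fibroblasts, macrophages and adipocytes were also highest in this library, and their part in these 4 values was not tested.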

How the results depend on the processing

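No respiratory chain gene was called under any alternative run. The number of genes called over all genes for 24 h against untreated was 7 with only the compared groups, 2 without 5-day library 1 and library sizes computed without mitochondrial genes, and 105 in DESeq2 without that library. For 5 days against untreated it was 21 in DESeq2 and 77 in DESeq2 without 5-day library 1, and for 5 days against 24 h it was 3 and 20. The alternatives that join or add to leaving out 5-day library 1 were chosen after seeing the data. A block by replicate number was fitted as an alternative, since pairing was not settled. With the replicate block, 0 genes were called. Log2 fold changes of the other sign were then 0.0537 (Sdha), 0.0400 (Sdhb) and 0.0899 (Uqcr10) at 24 h. They were 0.0667 (mt-Cytb) at 5 days against untreated and -0.1599 (mt-Atp8) for 5 days against 24 h. Under the block the nuclear median at 24 h turned positive, to 0.0633, against -0.0617 without it. The mitochondrial median at 24 h was 0.5292 with the block and 0.2357 without it. For 5 days against 24 h, the nuclear and mitochondrial medians were 0.0979 and -0.2784 with the block, and 0.2064 and -0.0572 without it. The filters turned mt-Cytb to 0.0005 (mean of at least 5 CPM, 5 days against untreated) and mt-Atp8 to -0.0169 (no filter, 5 days against 24 h). Leaving out 1 library, or 5-day libraries 1 and 2 together, for 24 h against untreated gave 0 to 3 for genes called, -0.0093 to 0.4930 for mt-Nd1, -0.1038 to 0.3864 for mt-Cytb, -2.5546 to 0.3626 for Cox8b, -0.0338 to 0.3662 for mt-Atp8. For 5 days against untreated, log2 fold changes of the other sign without 5-day library 1 and with library sizes computed without mitochondrial genes were -0.0113 (mt-Nd5), -0.2541 (mt-Nd2), -0.1204 (mt-Co1), -0.1161 (mt-Co3), -0.0969 (mt-Atp8), -0.2103 (mt-Atp6). For 5 days against untreated, log2 fold changes of the other sign in DESeq2 without 5-day library 1 were -0.0089 (mt-Nd5), -0.2513 (mt-Nd2), -0.1182 (mt-Co1), -0.1136 (mt-Co3), -0.0946 (mt-Atp8), -0.2079 (mt-Atp6). Leaving out 1 library, or 5-day libraries 1 and 2 together, for 5 days against untreated gave -0.1186 to 0.2564 for the nuclear median, -0.3860 to 0.3142 for the mitochondrial median, -0.1650 to 0.4439 for mt-Nd5, -0.5556 to 0.4706 for mt-Nd2, -0.0046 to 0.3930 for Ndufv1, -0.0865 to 0.7669 for Sdha, -0.0469 to 0.4939 for Sdhd, -0.5523 to 0.1330 for mt-Cytb, -0.3041 to 0.4960 for mt-Co1, -0.3044 to 0.3843 for mt-Co3, -1.0243 to 4.7734 for Cox7a1, -1.5118 to 4.9187 for Cox8b, -0.2022 to 0.3142 for mt-Atp8, -0.3608 to 0.2727 for mt-Atp6. For 5 days against 24 h, log2 fold changes of the other sign without 5-day library 1 and with library sizes computed without mitochondrial genes were -0.2833 (mt-Atp8). For 5 days against 24 h, log2 fold changes of the other sign in DESeq2 without 5-day library 1 were -0.2694 (mt-Atp8). Leaving out 1 library, or 5-day libraries 1 and 2 together, for 5 days against 24 h gave 0 to 2 for genes called, -0.0599 to 0.2888 for the nuclear median, -0.6529 to 0.1730 for the mitochondrial median, -0.6618 to 0.0937 for mt-Nd6, -0.6800 to 0.1730 for mt-Nd3, -0.6969 to 0.0713 for mt-Cytb, -0.6547 to 0.1889 for mt-Co2, -0.5551 to 0.2060 for mt-Co3, -0.0302 to 5.3619 for Cox7a1, -0.0173 to 5.6352 for Cox8b, -0.5999 to 0.1035 for mt-Atp6, -0.3767 to 0.2140 for mt-Atp8. Of the values of single genes, 68 turned sign and 797 did not. Of the summaries, 14 moved and 222 did not. A median or ratio counted as moved only when it shifted by at least 1 SD between libraries. A turned sign, as in the nuclear median at 24 h under the block, can thus stand among the 222. Scaling cannot change the ratio of sums, so the ratio could not move in the settings that alter scaling alone. Unless the setting has fewer libraries, the cause of a change was not tested. The biological coefficient of variation was 40.8%, and 18.9% without 5-day library 1, and the smallest change that either fit could call was not measured.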

Other observations

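A split by protein length, chosen after the values were seen, is given as a description. Among nuclear respiratory genes, all 21 with a coding length over 600 bases had a positive log2 fold change for 5 days against 24 h (median 0.34), as did 45 of 58 shorter ones (median 0.15). Without 5-day library 1 this held for 19 of 21 longer genes (median 0.16) and 25 of 58 shorter genes (median -0.02). Over all tested genes with a coding length, 56.2% of the longer and 48.2% of the shorter genes were positive, and 52.9% and 33.2% without library 1. At 24 h against untreated, 2 of 21 longer genes (median -0.13) and 22 of 58 shorter genes (median -0.04) were positive, beside 48.9% of the longer and 49.5% of the shorter genes overall. At 5 days against untreated, 20 of 21 longer genes (median 0.27) and 44 of 58 shorter genes (median 0.13) were positive, beside 54.2% and 47.8% overall. Without library 1 these were 15 of 21 (median 0.05) and 24 of 58 (median -0.04), beside 53.3% and 36.1%. The longer nuclear genes include Sdha, Ndufs1, Uqcrc2 and Atp5b, the catalytic or core subunits described above. Transcript integrity was not measured in the files, and its part in this split was not tested.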
